A study of Mus musculus with 6 samples.

Results

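Processed pseudogene copies of ribosomal protein genes were followed in bone marrow-derived macrophages (BMDMs) with and without the mitochondrial fission GTPase Drp1 (gene symbol Dnm1l). A copy was counted as a member if its GENCODE biotype held the word pseudogene, its symbol was an Rpl or Rps name ending in -ps and it had at least 10 estimated counts summed over all 6 libraries. Gm12918 was added by name. Of 317 symbols of that form, 127 reached 10 counts, and with Gm12918 there were 128 copies of 47 parent genes among 18482 genes with at least 10 counts. Of the copies, 75 had 10 counts in both groups, 14 in the Drp1 KO group alone, 11 in the WT group alone and 28 in neither group, so low copies could enter through 1 group.

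Each ribosome carries a small subunit built with Rps proteins and a large subunit built with Rpl proteins. Their mRNAs are short and abundant, and reverse transcription of such mRNAs has scattered intron-less copies over the mouse genome. Most such copies are not known to make protein. A read that matches a parent and its copy equally well has no unique origin, and programs such as kallisto divide it between them by a likelihood model.

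WT and Drp1 KO BMDMs were compared after 8 hours of hypoxia serum starvation (HSS), a culture without serum at 2.1% oxygen that stands in for ischemia. KO cells came from LysM-Cre+/- Drp1 fl/fl mice, in which Cre is driven by the lysozyme M promoter of myeloid cells, and WT cells from LysM-Cre+/- Drp1+/+ littermates, so both groups carried Cre. Adult mice of both sexes were used, marrow was pooled within a genotype and cells were differentiated for 7 days with 10% L929 supernatant. There were 3 libraries per group, and the labels call them biological replicates. Whether each came from a marrow pool of its own is not stated, so p-values measure the spread between these libraries, part of which may be technical.

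Library depth was 24269850 to 28650715 estimated counts in WT and 23389488 to 32231206 in Drp1 KO, and 3 counts, taken as the floor, were 0.0936 to 0.129 CPM. Dnm1l, the targeted gene, had 72.7, 69.9 and 75.1 CPM in WT and 58.7, 60.7 and 66.3 CPM in Drp1 KO. The groups did not overlap, but its log2 fold change of -0.23 (SE 0.09) did not pass the test (edgeR adjusted p = 0.248). Counts on exons outside the deleted part stay in this sum. The 8 macrophage markers summed to 13412 to 14811 CPM in WT and 11993 to 14417 CPM in Drp1 KO, with none at 0. Of these, 3 passed the test, Fcgr1 higher and Csf1r and Mertk lower in Drp1 KO (log2 fold changes 1.34, -0.52 and -0.52; edgeR adjusted p = 0.000322, 0.0340 and 0.0236). The 8 neutrophil markers summed to 5.99 to 18.6 CPM and 16.5 to 41.3 CPM, with Ly6g at 0, and the 6 lymphocyte markers to 304.9 to 320.9 CPM and 121.4 to 246.8 CPM. The 5 fibroblast markers and the 5 dendritic cell markers stayed under 5 CPM in sum in each library. The part of these shifts in any result was not tested, and in bulk RNA fewer cells of a type and less RNA per cell cannot be told apart.

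How far a copy can be told from its parent depends on their sequences, so windows of 75 bases are shown for 4 of the copies described here, which range from equal to the parent to closer to another gene. All windows lie in the parents' coding sequence or its match in the copy (GRCm39) and read 5′ to 3′. Capitals mark bases at which the sequences of a group are not all alike. Gm12918 (chr4:10848420-10848494, plus strand) equals bases 1 to 75 of the coding sequence of Rpl13 (gene at chr8:123829069-123831992), and no base differed over all 636 bases of the copy.
Gm12918: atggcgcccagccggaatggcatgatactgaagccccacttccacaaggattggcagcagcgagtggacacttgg
Rpl13: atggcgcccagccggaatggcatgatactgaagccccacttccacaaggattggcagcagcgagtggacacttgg

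Rps26-ps1 (chr8:108165889-108165963, minus strand) had 2 mismatches to Rps26 in 351 bases, and the window at coding bases 232 to 306 of Rps26 holds one, G270A (the base of Rps26, its position counted from 1 at the start of the coding sequence, then the base of the copy).
Rps26-ps1: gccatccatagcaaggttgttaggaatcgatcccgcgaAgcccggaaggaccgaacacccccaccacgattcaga
Rps26: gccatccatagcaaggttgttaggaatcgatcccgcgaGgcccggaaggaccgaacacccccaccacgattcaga

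Rps27a-ps2 (chr9:83292049-83292123, plus strand) differed from Rps27a at 1 of 467 bases, A375G, which lies in this window of coding bases 337 to 411.
Rps27a-ps2: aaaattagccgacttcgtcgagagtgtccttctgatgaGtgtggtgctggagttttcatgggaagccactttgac
Rps27a: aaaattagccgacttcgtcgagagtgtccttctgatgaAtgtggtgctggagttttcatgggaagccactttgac

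Rpl36a-ps3 (chr6:136465912-136465986, plus strand) bears the name of Rpl36a but differed from it at 15 bases of this window (coding bases 108 to 182) and from Rpl36al, a functional paralog of Rpl36a, at 1. Over its 321 bases it had 40 mismatches to Rpl36a and shared 89.3% of its 31-mers with Rpl36al and none with Rpl36a.
Rpl36a-ps3: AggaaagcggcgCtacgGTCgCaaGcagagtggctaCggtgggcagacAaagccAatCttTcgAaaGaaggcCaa
Rpl36a: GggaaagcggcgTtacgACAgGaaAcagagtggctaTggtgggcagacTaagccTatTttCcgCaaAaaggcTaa
Rpl36al: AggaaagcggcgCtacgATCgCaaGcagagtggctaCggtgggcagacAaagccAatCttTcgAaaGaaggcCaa

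The copies were 216 to 1214 bases long, and 126 of 128 aligned to the parent of their name, or for Gm12918 to its best match, with a median identity of 98.5%. Rpl18-ps1 and Rpl17-ps11 did not align to theirs. Of the copies, 12 lay whole and without a mismatch within a transcript of the parent. A 31-mer is the unit that kallisto matches, and 20 copies had no 31-mer that was absent from every other transcript. These 20 held 84.7% of the copies' estimated counts, and the 102 copies with at least 30 such 31-mers held 8.20%. In the annotation, 55 copies lay in introns of other genes (19 on the same strand), 23 overlapped exons (13 on the same strand) and 50 lay outside other genes. Reads from a host gene and from a copy in it cannot be told apart without strand, and the strand setting of the counting is not stated.

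**Figure D1:**
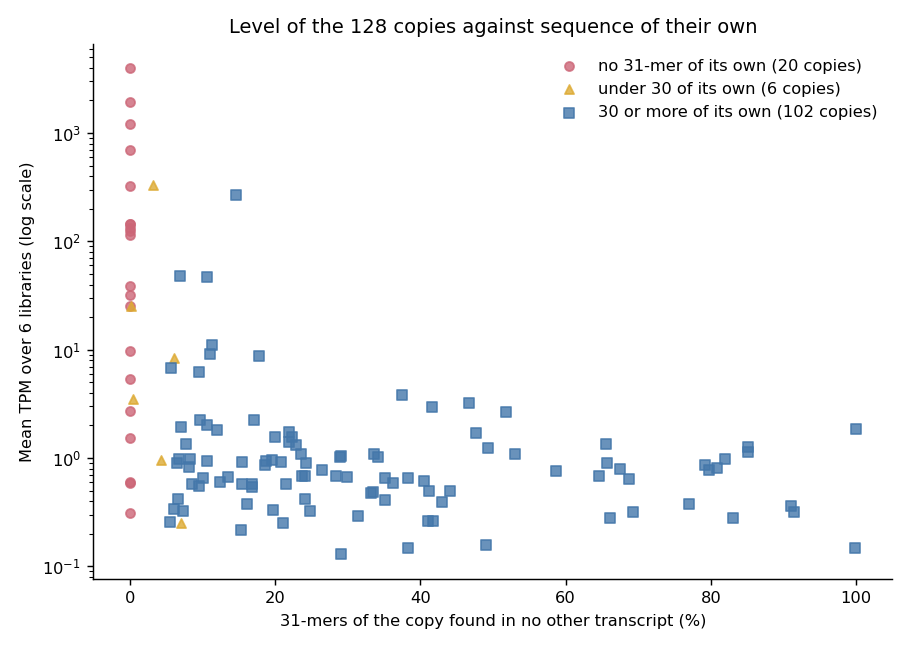
Each point is 1 of 128 copies. The x axis gives the percentage of its 31-mers found in no other transcript and the y axis its mean TPM over 6 libraries on a log scale, and the copies with most TPM sit at or near 0% on the x axis.

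Counts were concentrated on few copies. Rps23-ps1 and Rps27a-ps2 took 57.7% of the copies' counts, the 10 most counted took 91.9%, and 95 copies had under 100 counts in all 6 libraries together. By TPM, which is per length, the median copy stood at 0.923 and the median parent at 493.2. Yet 7 copies stood above their parents in mean TPM. Rps23-ps1 had 3965 TPM against 588 TPM for Rps23, a protein of the decoding center of the small subunit, and Rpl31-ps8 had 1210 TPM against 127 TPM for Rpl31. Rps12-ps3 had 704 TPM against 119 TPM for Rps12, and Rpl36a-ps2 325 TPM against 125 TPM for Rpl36a. Each of these 4 copies lies whole within a parent transcript. Rps27a-ps2 had 1939 TPM against 1272 TPM for Rps27a, which makes ubiquitin fused to a small-subunit protein. Rpl10a-ps1 had 126 TPM against 102 TPM for Rpl10a, and Rpl27-ps3 133 TPM against 130 TPM for Rpl27. These levels are estimates of how shared reads were divided.

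As a share of the counts on copies and parents together, the copies took 9.48%, 10.4% and 11.5% in WT and 10.7%, 12.1% and 11.7% in Drp1 KO. The groups overlapped, although in each of the 3 same-numbered pairs the share was higher in Drp1 KO, and the mean difference was 1.05 percentage points (0.355 with TPM, 0.872 without Gm12918, 0.558 without WT library 1 and 1.59 without WT library 3). By TPM the share was 18.3%, 19.5% and 21.0% in WT and 18.8%, 21.1% and 19.9% in Drp1 KO, higher in 2 of the 3 pairs. Counts on the parents were 1.44% to 1.49% of a WT library and 1.29% to 1.40% of a Drp1 KO library.

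Of the 127 copies chosen by symbol, 3 were higher in Drp1 KO and none was lower at an adjusted p under 0.05 (edgeR quasi-likelihood test). That is 2.36% of them, beside 3.36% of 18506 genes tested (2.29% higher and 1.06% lower). These were Rps26-ps1, Rpl15-ps3 and Rpl27-ps3, and each kept its call in all 14 alternative settings. Rpl15-ps3, at 0 in WT, reached 10 counts through the Drp1 KO group alone, so its call adds no support. DESeq2 called 5, these 3 and, as lower, Rpl31-ps8 and Rpl7a-ps3, beside 1155 of the 18506 genes. With same-numbered libraries paired, 13 copies passed (9 higher and 4 lower, 10.2%, beside 12.0% of all genes, 6.73% higher and 5.22% lower). By the study's own criteria of fold change and unadjusted p, 20 copies passed, beside 12.7% of all genes. The median log2 fold change of the copies moved with the libraries and the tool. It was -0.17, but -0.041 without Drp1 KO library 3, -0.10 without Drp1 KO library 2, -0.094 without WT library 3 and -0.29 with limma-voom. It was -0.12 over the 120 copies above the floor in at least 1 library, when the bound replaced the fitted value of a copy with a group at the floor. The median of all genes tested was 0.0046. Of the copies, 57 had a positive and 70 a negative value. The 102 copies with at least 30 31-mers of their own had no call by edgeR or limma-voom. They had 1 by DESeq2 (Rpl7a-ps3) and 5 with the pairing (4.9%, beside 12.0% of all genes). At an unadjusted p under 0.05 there were 11, beside 3038 of the 18506 genes. The 19 symbol-rule copies with no 31-mer of their own had 3 calls (15.8%, beside 3.36% of all genes), Rpl15-ps3 among them. With the pairing they had 8 (42.1%, beside 12.0%). Groups did not overlap in 22 of 127 copies, beside 21.9% of all genes.

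Rps26-ps1 is a copy of Rps26, a small-subunit protein that contacts mRNA at the exit channel. It had 2.45, 5.29 and 8.12 estimated counts in WT and 77.9, 313 and 295 in Drp1 KO, or 0.182 ± 0.093 CPM against 7.38 ± 3.34 CPM (SD, n = 3). All Drp1 KO libraries lay above all WT libraries. The log2 fold change was 5.27 (SE 0.49, edgeR adjusted p = 0.000442). Rps26 itself had 124, 109 and 106 CPM in WT and 133, 88.0 and 75.7 CPM in Drp1 KO, which overlap, and its log2 fold change of -0.19 (SE 0.18) did not pass (edgeR adjusted p = 0.684). The copy lies opposite to an exon of Wwp2 and shared all of its 31-mers with the long non-coding RNA Gm65298, which had 20.7, 12.2 and 15.4 counts in WT and 36.4, 0 and 8.45 in Drp1 KO. The protein-coding Med21 holds 57.3% of its 31-mers in a transcript and had 1070, 987 and 937 counts in WT and 1178, 2130 and 1459 in Drp1 KO (log2 fold change 0.51, edgeR adjusted p = 0.142, and 0.0118 with the pairing). Its part in the counts of the copy was not tested.

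Rpl15-ps3 (ENSMUST00000088480, chr9:22096903-22097517) lies outside other genes and equals 615 bases of Rpl15, a large-subunit protein. It had 0 counts in each WT library and 93.6, 197 and 299 in Drp1 KO. Taken against the floor of 3 counts per library, it was at least 56.6-fold higher in Drp1 KO. This is given as a description, since the copy passed the count rule only through that group. Rpl15 had 161, 139 and 153 CPM in WT and 155, 142 and 121 CPM in Drp1 KO, with overlap and a log2 fold change of -0.11 (SE 0.11, edgeR adjusted p = 0.711). Counts on the copy were 2.66%, 4.06% and 7.03% of those on copy and parent together in Drp1 KO. Its near relative Gm4294, which holds 98.8% of its 31-mers, had 0, 9.92 and 67.3 counts in WT and 0, 59.0 and 0 in Drp1 KO.

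Rpl27-ps3 (ENSMUST00000097682, chr18:6332632-6333042) equals 411 bases of Rpl27, a large-subunit protein, and holds its whole coding sequence. In WT it had 16.0, 17.1 and 13.9 CPM, and in Drp1 KO 26.0, 29.0 and 26.1 CPM, with no overlap. Its log2 fold change was 0.79 (SE 0.12, edgeR adjusted p = 0.00635). Rpl27 had 38.7, 47.2 and 49.1 CPM in WT and 38.9, 46.0 and 34.9 CPM in Drp1 KO, which overlap (log2 fold change -0.17, SE 0.13, edgeR adjusted p = 0.600). Gm11518 on chromosome 11 shared all 31-mers of Rpl27-ps3 and was given the same estimated counts in each library, so this value is that of the sequence and not of 1 locus.

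Gm12918 (ENSMUST00000120234, chr4:10848420-10849055) was taken up because of its difference, which is given here as a description with no test. It is a copy of Rpl13, a large-subunit protein. It had 0 counts in each WT library after rounding and 232, 937 and 1664 in Drp1 KO, or 30.1 ± 20.3 CPM (SD, n = 3), at least 262-fold above the floor. Rpl13 had 551, 499 and 506 CPM in WT and 427, 384 and 320 CPM in Drp1 KO, without overlap. Its log2 fold change was -0.46 (SE 0.12, edgeR adjusted p = 0.0678, and 0.00402 with the pairing). With all copies of Rpl13 added to it, Gm12918 included, the log2 fold change was -0.35, given with no test. Gm15710, which holds 94.9% of its 31-mers, had 40.97, 26.2 and 60.4 counts in WT and 69.5, 48.8 and 106 in Drp1 KO.

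**Figure D2:**
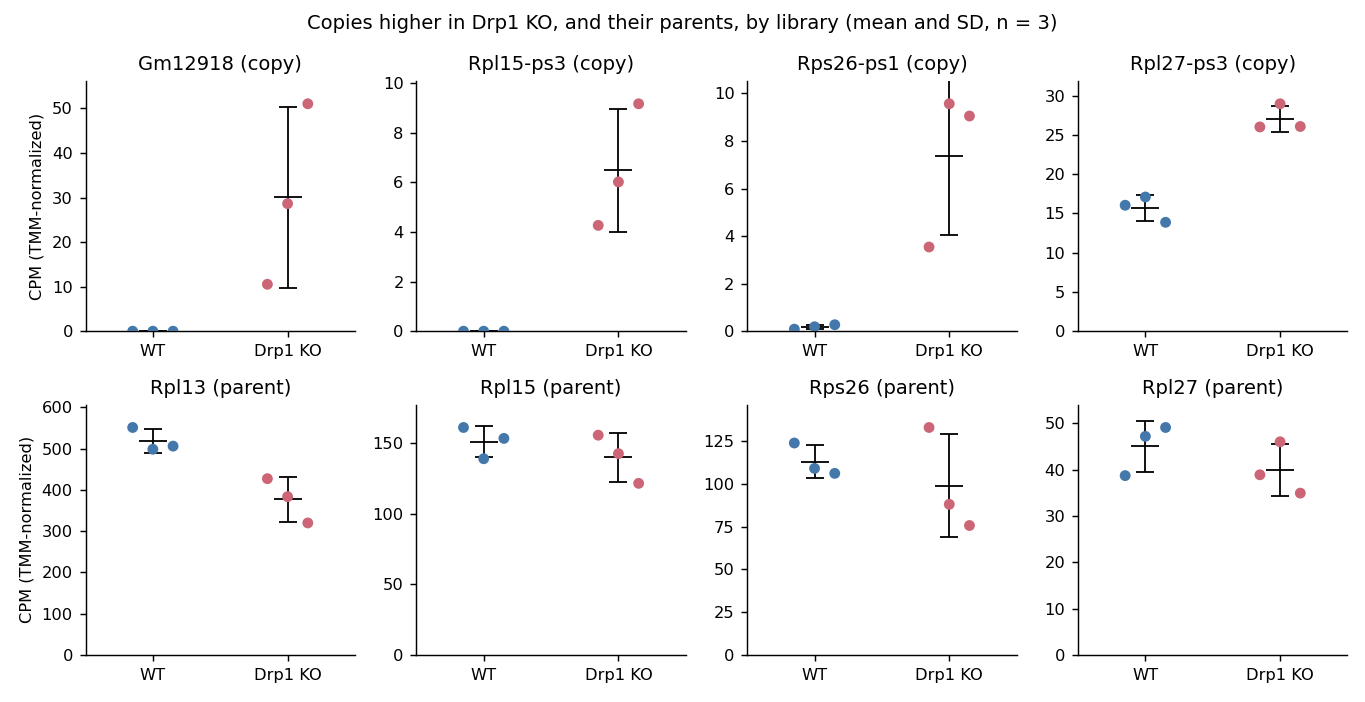
CPM of 4 copies (top) and their parents (bottom) by library, with the mean and SD of 3 WT (blue) and 3 Drp1 KO (red) libraries. WT libraries are at 0 for Gm12918 and Rpl15-ps3, while their parents lie above 100 CPM in every library.

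The pattern of at most 3 counts in each WT library and at least 30 in each Drp1 KO library, set after the values were seen, was met by 3 genes, 0.0162% of those tested. They were Gm12918, Rpl15-ps3 and Gm15429, another processed pseudogene, with 93, 88 and 76 counts in Drp1 KO. Not all copies with 0 counts in WT behaved in this way. Rps13-ps1 had 0 counts in each WT library and 33.9, 20.1 and 0 in Drp1 KO. The Drp1 KO mean was 6.26-fold above the floor, but Drp1 KO library 3 stood at 0 like the WT libraries. This copy too passed the count rule only through the Drp1 KO group. Rps6-ps4, identical over 750 bases to Rps6, had 51.0, 0 and 27.2 counts in WT and 1399, 0 and 0 in Drp1 KO. A single Drp1 KO library thus held nearly all of its counts, and its log2 fold change of 4.36 (edgeR adjusted p = 0.285) became -7.91 without Drp1 KO library 1. Rps6 had 926, 825 and 774 CPM in WT and 703, 649 and 589 CPM in Drp1 KO (edgeR adjusted p = 0.1004, and 0.00528 with the pairing).

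Among the other small-subunit copies, Rps27a-ps2 had 257, 282 and 384 CPM in WT and 352, 459 and 416 CPM in Drp1 KO, with overlap. Its log2 fold change was 0.41 (SE 0.16, edgeR adjusted p = 0.220), and with the pairing it rose by 0.42 (adjusted p = 0.0212). Rps27a had a log2 fold change of 0.018 (SE 0.10). Mlkl, a protein-coding gene that holds 66.4% of the 31-mers of the copy, had 1808, 1924 and 2009 counts in WT and 2087, 3374 and 3458 in Drp1 KO, without overlap (log2 fold change 0.48, edgeR adjusted p = 0.0239), and its part in the counts of the copy was not tested. Rps13-ps2 had 32.3, 16.6 and 19.5 CPM in WT and 32.4, 36.7 and 33.5 CPM in Drp1 KO, a log2 fold change of 0.59 (edgeR adjusted p = 0.183, and 0.0320 with the pairing). Its parent Rps13 had 50.5, 53.9 and 49.9 CPM in WT and 49.98, 37.8 and 33.0 CPM in Drp1 KO (log2 fold change -0.36, edgeR adjusted p = 0.245, and 0.0483 with the pairing). Copy and parent thus had opposite signs.

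Rpsa-ps10, a copy of the laminin receptor and small-subunit gene Rpsa, had 24.1, 11.6 and 22.4 counts in WT and 42.0, 24.4 and 63.1 in Drp1 KO. It passed only with the pairing (log2 fold change 1.01, edgeR adjusted p = 0.0449, and 0.291 without). Rps23-ps1 and Rps12-ps3, the remaining small-subunit copies among the 10 of highest CPM, had log2 fold changes of -0.11 and -0.12 and did not pass in either fit.

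Among large-subunit copies, Rpl31-ps8 had 169, 171 and 199 CPM in WT and 150, 139 and 117 CPM in Drp1 KO, with no overlap (log2 fold change -0.41, SE 0.12, edgeR adjusted p = 0.0964, and 0.0280 with the pairing). Rpl31 had a log2 fold change of -0.35 (edgeR adjusted p = 0.243), and the copy took 82.5% to 83.9% of the counts of the pair in each library. Rpl14-ps1 had 87.8, 67.7 and 92.1 CPM in WT and 111, 89.9 and 118 CPM in Drp1 KO (log2 fold change 0.37, edgeR adjusted p = 0.219, and 0.00705 with the pairing). Unlike most highly counted copies, it has 91 31-mers of its own. Its parent Rpl14 went the other way, with a log2 fold change of -0.32 (edgeR adjusted p = 0.291, and 0.0177 with the pairing).

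Rpl10a-ps1, which overlaps an exon of Akr1cl on the same strand, had a log2 fold change of 0.28 (edgeR adjusted p = 0.421, and 0.0395 with the pairing) and Rpl10a one of -0.16. Rpl7a-ps3 had 8.93, 4.65 and 4.12 CPM in WT and 2.72, 3.21 and 2.27 CPM in Drp1 KO, with no overlap (log2 fold change -1.10, SE 0.30, edgeR adjusted p = 0.0816, and 0.0112 with the pairing). Rpl7a had a log2 fold change of -0.14. Rpl36a-ps3 had 7.03, 5.02 and 6.37 CPM in WT and 5.27, 2.32 and 1.50 CPM in Drp1 KO (log2 fold change -1.05, edgeR adjusted p = 0.186, and 0.0149 with the pairing), and Rpl36al, which its sequence resembles, one of -0.26 (adjusted p = 0.456). Rpl19-ps11 spread from 66.9 to 154 CPM in WT and from 41.1 to 169 CPM in Drp1 KO, and Rpl28-ps1 from 26.3 to 38.9 CPM and from 16.2 to 40.1 CPM, and neither passed in either fit. Without Drp1 KO library 1, Rpl28-ps1 had a log2 fold change of -0.91 (edgeR adjusted p = 0.0239).

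**Figure D3:**
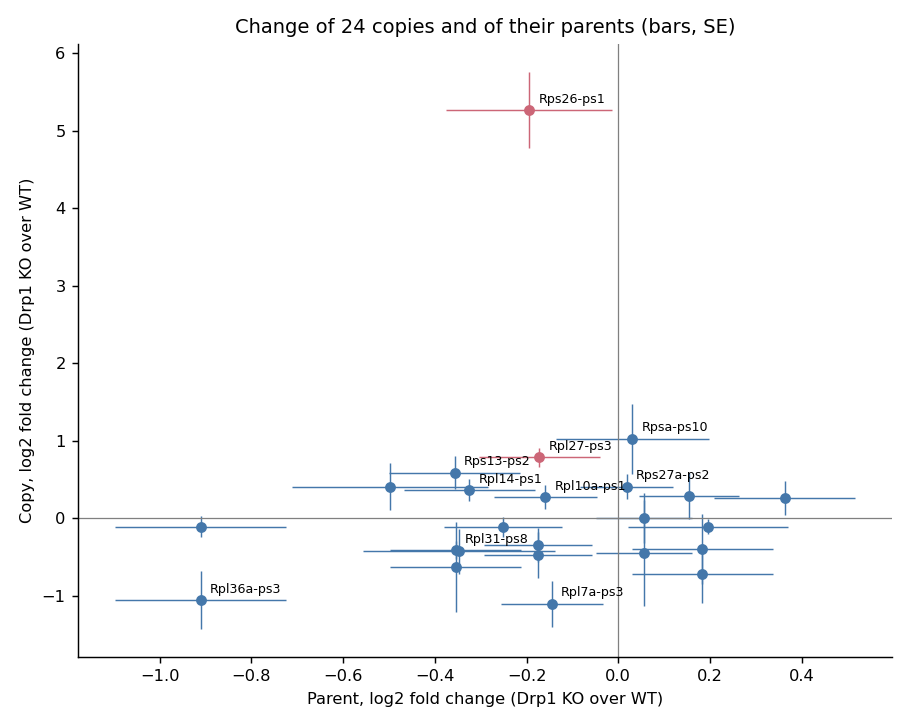
Log2 fold change (Drp1 KO over WT) of 24 copies with a mean of at least 1 CPM (y axis) against that of their parents (x axis), with SE bars. Rps26-ps1 and Rpl27-ps3 (red) passed the test, Rps26-ps1 stands alone at 5.27, and Gm12918, Rpl15-ps3 and Rps6-ps4 are not drawn.

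Of the 27 copies with a mean of at least 1 CPM, 13 had the opposite sign to their parent and 14 the same sign. The 13 include Gm12918, picked for its difference, and Rpl15-ps3, which passed the count rule through the Drp1 KO group alone. They also include Rps6-ps4, whose sign rests on Drp1 KO library 1. The tally is therefore only a description. The log2 ratio of copy to parent was compared per library by an exact two-sided permutation test, which with 3 libraries against 3 cannot go below p = 0.1. That smallest value was reached by Rpl36a-ps2, whose part of the pair's counts was 54.0%, 48.7% and 53.0% in WT and 62.1%, 67.7% and 67.2% in Drp1 KO (exact permutation p = 0.1). It was reached too by Rps13-ps2, with 39.0%, 23.5% and 28.1% in WT and 39.3%, 49.3% and 50.4% in Drp1 KO (exact permutation p = 0.1), and by Rpl27-ps3, with 29.3%, 26.6% and 22.1% in WT and 40.1%, 38.6% and 42.8% in Drp1 KO (exact permutation p = 0.1). Rpl14-ps1 had 20.2%, 18.3% and 24.0% in WT and 26.5%, 27.7% and 36.0% in Drp1 KO (exact permutation p = 0.1). For Rps23-ps1, the copy with most counts, the part was 80.7% to 83.1% in WT and 73.4% to 82.2% in Drp1 KO (exact permutation p = 0.5).

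**Figure D4:**
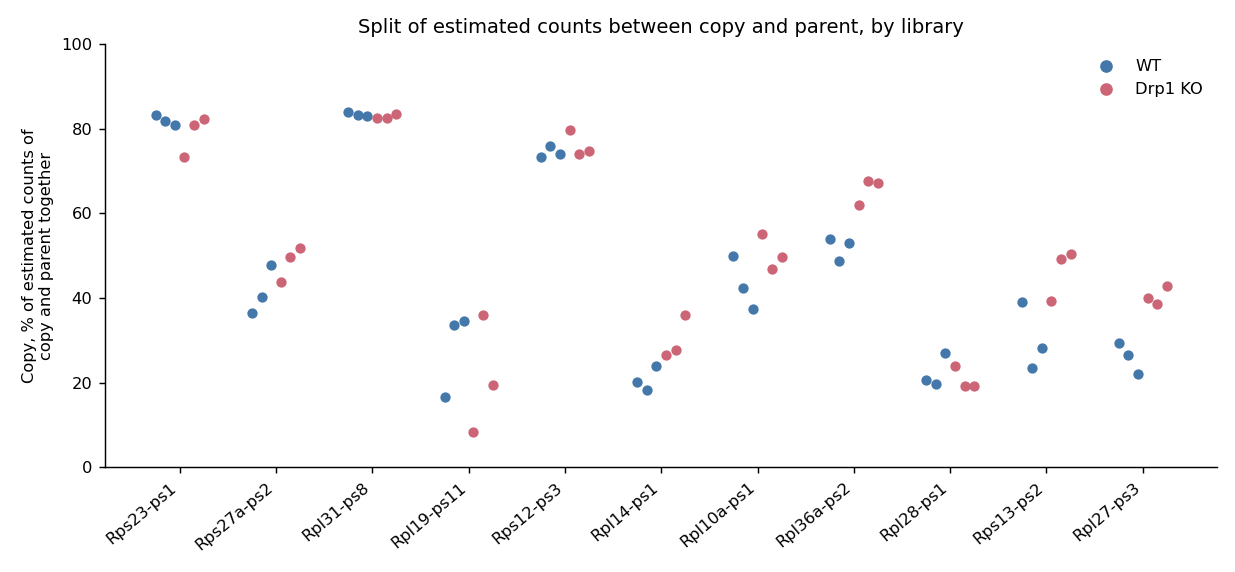
Percentage of the estimated counts of copy and parent that went to the copy, by library (WT blue, Drp1 KO red), for the 10 copies of highest mean CPM and Rpl27-ps3. The points of the groups are apart for Rpl14-ps1, Rpl36a-ps2, Rps13-ps2 and Rpl27-ps3 and overlap for the other 7 copies.

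Of the 47 parents, 4 passed the test, 3 lower and 1 higher in Drp1 KO (8.51%, beside 3.36% of all genes). Rpl36a and Rpl21 were among the lower ones, and Rps15a was the higher one. With the pairing, 15 passed (31.9%, beside the 12.0% of all genes). Rpl21 had 217, 211 and 220 CPM in WT and 167, 125 and 96.9 CPM in Drp1 KO (log2 fold change -0.74, edgeR adjusted p = 0.0410). Its call was lost without any 1 of WT libraries 1, 2 and 3 and Drp1 KO libraries 2 and 3 (adjusted p = 0.0603, 0.142, 0.131, 0.170 and 0.0733), with values of -0.56 to -0.77. Rps15a had 83.7, 82.2 and 82.6 CPM in WT and 122, 134 and 126 CPM in Drp1 KO (log2 fold change 0.62, SE 0.09, edgeR adjusted p = 0.00390, and 1.50 with length-scaled counts). Rpl21 and Rps15a were named after their values were seen.

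Because a read that matches both can be assigned to either, each parent was also tested as the sum of itself and the copies of its name. Of 47 sums, 3 passed (6.38%, beside 3.37% of all features), and 15 with the pairing, beside 12.0%. The sum of Rpl13 is among the 15. It holds Gm12918, which was picked for its difference, so its pass adds no support. Not all copies in a sum share sequence of 31 bases with the parent, and Rpl36a-ps3 and Rpl36a-ps4 share none with Rpl36a. Rpl36a had 28.2, 31.5 and 32.2 CPM in WT and 22.1, 14.4 and 12.7 CPM in Drp1 KO, without overlap (log2 fold change -0.91, SE 0.19, edgeR adjusted p = 0.0272). Its sum stood at 70.2 ± 4.50 CPM (SD, n = 3) in the WT group and at 50.4 ± 12.1 CPM in the Drp1 KO group, and a log2 fold change of -0.48 that did not pass (edgeR adjusted p = 0.136, and 0.0236 with the pairing). The call on Rpl36a alone was also lost when library 2 or 3 of the WT group or of the Drp1 KO group was left out (adjusted p = 0.122, 0.104, 0.139 and 0.0749).

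The log2 fold change of Rps13 went from -0.36 to 0.013 in the sum, that of Rpl14 from -0.32 to -0.15, and that of Rpl27 from -0.17 to 0.14. None of these sums passed. Rps15a, in contrast, had 0.62 both alone and in the sum, and its call held. When genes that are not protein-coding and hold at least 50% of a copy's 31-mers were added as well, 2 sums passed (4.26%, beside 3.34% of all features), that of Rps15a among them, and 17 with the pairing (36.2%, beside 12.3%). The sum of Rpl13, with Gm12918 in it, is again among the 17, and its pass adds no support.

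**Figure D5:**
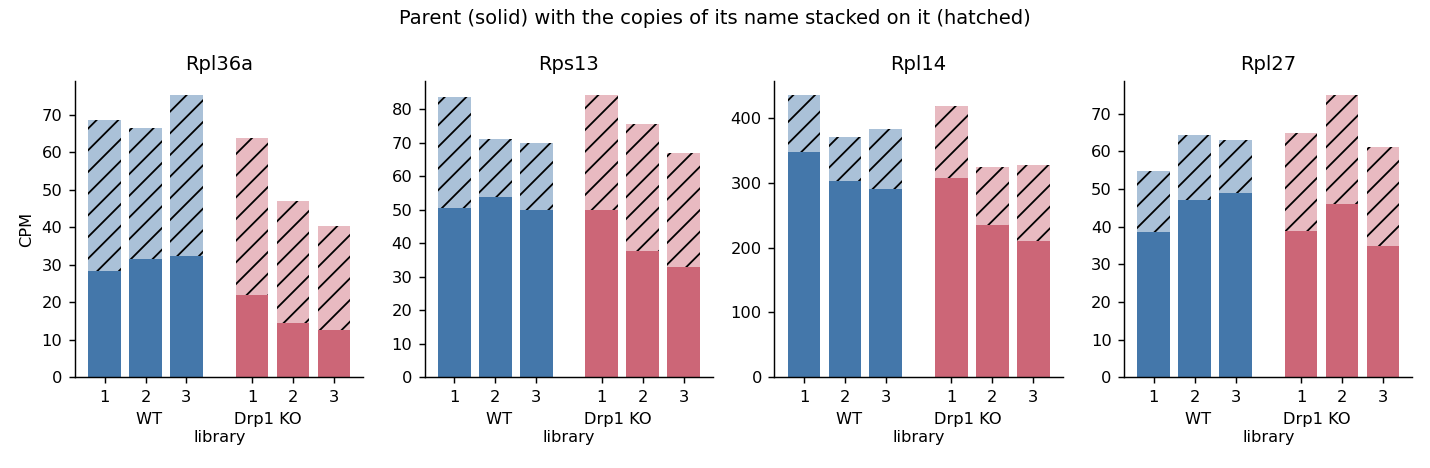
CPM of 4 parents (solid) with the copies of their names stacked on them (hatched) in 3 WT (blue) and 3 Drp1 KO (red) libraries. For Rps13 and Rpl27 the full bars of the groups overlap, and for Rpl36a they do not.

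Other ribosomal protein genes gave the frame for these values. Of 32 small-subunit genes, 1 was higher and 3 lower at an adjusted p under 0.05 (12.5%, beside 3.36% of all genes; edgeR, median log2 fold change -0.046). Of 47 large-subunit genes, none was higher and 2 were lower (4.26%, median -0.13). With the pairing, 15 small-subunit genes (46.9%, 6 higher and 9 lower) and 13 large-subunit genes (27.7%, 2 higher and 11 lower) passed, beside 12.0% of all genes. The parents are among these genes. Of the 8 functional paralogs tested, 1 passed (12.5%, in both fits), and it was Rps27l, which rose from 12.7 ± 1.52 to 20.5 ± 3.27 CPM (SD, n = 3; log2 fold change 0.69, edgeR adjusted p = 0.0356). None of 16 other mRNAs with a 5′ TOP motif, the leader that ties translation factors to ribosomal proteins, passed by edgeR or limma-voom. DESeq2 called 2 and the pairing 4 (25%, beside 12.0% of all genes), all lower, and 3 had an unadjusted p under 0.05. Among all 2270 other pseudogenes tested, 31 were higher and 9 lower (1.76%, beside 3.36% of all genes), and with the pairing 100 passed (4.41%, beside 12.0%).

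At the edge of the count rule, Rpl21-ps9 with 10.02 and Rpl17-ps11 with 10.0 summed counts were the last members. Rpl7a-ps12 with 9.99 and Rps12-ps4 with 9.96 were the first symbols left out.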

How the data were processed

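RNA-seq libraries of WT and Drp1 KO BMDMs (3 each) were analysed. The authors pseudoaligned reads to Ensembl cDNA of GRCm39 with kallisto 0.46.1 and, per the submitters' processing notes, used DESeq2 1.44.0. The labels and the methods differ in kit, RNA extraction, oxygen and L929 content, and label values are given. The deposited estimated counts are per transcript and carry no scaling. TPM, also deposited, are scaled by library and length and served for levels between genes. Length and effective length were not tested.

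Of 116873 transcripts, 116159 matched the GENCODE vM39 annotation. Counts were summed over the transcripts of a gene, then rounded. CPM were TMM-normalized. Genes with at least 10 counts were tested with edgeR 4.0.16 (quasi-likelihood, no covariate, Benjamini-Hochberg), in R 4.3.3. The SE was taken from the log2 fold change and the F statistic. On simulated counts for Drp1 KO against WT (18240 genes, 2-fold changes), 91% of changed genes were recovered and 12 unchanged genes were called. The changed genes were drawn from well-counted genes, with a fixed dispersion, so this rate does not apply to copies with few counts. Alignments used blastn 2.17.0, with sequences from GENCODE transcripts.

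Deviations of same-numbered libraries correlated (0.510, 0.204 and 0.298 over 12248 genes), so numbers were taken to pair libraries, from the data and not from the labels. Of the 6 differently numbered pairs, WT 2 with Drp1 KO 3 also correlated (0.326), and the others ranged from -0.443 to 0.0802. No batch is given. No 2 libraries agreed within sampling noise. Estimates of shared reads carry more error than counts show.

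The members, the lists and the tests were chosen with earlier results of these data known. Named copies were those called in either fit, the 10 of highest CPM, the 6 largest changes at 1 CPM or more, and Gm12918, with their parents. Some of these genes, and a lymphocyte marker, are not reported here. Alternatives were DESeq2 1.42.0, limma-voom (limma 3.58.1), other scalings and filters, length-scaled counts, pairing, sums and leaving out each library. Other splits of reads were not analysed here.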

Additional observations from a re-analysis of the deposited data

How the results depend on the processing

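Calls over all genes numbered 621, and 1155 with DESeq2, 1065 with a filter of 1 count, 2212 with the replicate block and 2345 with the study's criteria of fold change and unadjusted p. Leaving out a library gave 181 to 904. For the copies the same settings gave 5, 10, 13 and 20 calls in place of 3, and 3 to 7 without a library. Only copies with at least 30 own 31-mers, chosen after seeing the data, gave 0. For the parents, 4 became 9 with DESeq2, 7 with library size only, 7 with a filter of 1 count, 15 with the replicate block and 17 with the study's criteria. It was 2 with the sequence family sum, also chosen after seeing the data, and 2 to 9 without a library. The difference in share ran from 0.558 to 1.59 percentage points without a library.

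Signs reversed in few cases. Rps6-ps4 had -1.16 with limma-voom and -7.91 to 5.42 without a library. In the family sum and the sequence family sum, Rpl10a had 0.047 and 0.043, Rpl27 0.14 and 0.29, Rps13 0.013 and 0.0074, and Rps23 -0.047 and -0.051. Without a library, Rps12-ps3 ran from -0.23 to 0.022, Rpl36a-ps2 from -0.25 to 0.00044, Rpl19 from -0.046 to 0.29, Rps23 from -0.067 to 0.37, Rps27a from -0.032 to 0.10 and Rpsa from -0.17 to 0.18. The log2 ratio of copy to parent was 0.085 for Rpl31-ps8 by TPM, and 0.54 with 2 counts added and 0.49 by TPM for Rps6-ps4. Without a library it ran from -0.012 to 0.22 for Rps12-ps3, from -0.26 to 0.059 for Rpl28-ps1 and from -4.03 to 1.92 for Rps6-ps4. Beyond the calls given with both values, the replicate block also called Rpl28, the parent of Rpl28-ps1 (edgeR adjusted p = 0.0212, and 0.471 without the block). It called Rps13-ps1 too, which passed the count rule only through the Drp1 KO group, so that call adds no support. The cause of these shifts was not tested. Depth limits the 95 copies with under 100 counts, and the division of shared reads limits the rest.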

Other observations

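Of 117 other tested pseudogenes whose symbols end in -ps and digits, 4 passed, all higher in Drp1 KO. That is 3.42%, near the 3.36% of all genes, and with the pairing it was 8 (6.84%, beside 12.0%). Eif4a-ps4, a copy related to the translation initiation helicase, had 4679, 4496 and 5486 estimated counts in WT and 8199, 9759 and 11896 in Drp1 KO (log2 fold change 0.89, SE 0.12, edgeR adjusted p = 0.00270). Dynlt1-ps1, a copy of a dynein light chain gene, had 42.6, 33.6 and 51.6 counts in WT and 82.3, 162 and 206 in Drp1 KO (edgeR adjusted p = 0.00782). Trmt112-ps2 had 0 counts in each WT library and 9.36, 23.6 and 34.7 in Drp1 KO, so it passed the count rule only through that group and its call adds no support. Gvin-ps3, an unprocessed pseudogene of the interferon-inducible very large GTPases, had 57.3, 38.2 and 61.9 counts in WT and 75.3, 151 and 208 in Drp1 KO (edgeR adjusted p = 0.0392). How shared reads were divided for these genes was not tested.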
